A study of Mus musculus with 23 samples.

Results

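The natriuretic peptide genes of the mouse heart were followed in 6 rows of the deposited table of 46077 genes. They are the peptide genes Nppa and Nppb, the receptor genes Npr1, Npr2 and Npr3, and Corin, which codes for a processing protease. The rows were chosen by gene name, as a family, in all 23 RNA-seq libraries. The study compared male mice with floxed Panx1, the gene of the channel protein pannexin 1, with and without its deletion under MyHC6. MyHC6 names the alpha myosin heavy chain of cardiomyocytes, whose promoter is commonly used to restrict Cre to those cells, so other heart cells would keep the gene. All mice carried the floxed allele, and Panx1fl/fl mice are called wild type here and Panx1MyHC6 mice knockout. Isolated cardiomyocytes came from isoproterenol-treated knockout mice (4 libraries), isoproterenol-treated wild-type mice (4 libraries), saline knockout mice (3 libraries) and saline wild-type mice (3 libraries). Whole hearts came from isoproterenol-treated mice labelled knockout (4 libraries) and labelled wild type (5 libraries). Isoproterenol, a beta-adrenergic agonist, was given at 15 mg/kg/day for 14 days. Ages were not stated, and nothing in the labels says whether libraries came from separate animals, so p-values measure the spread between these libraries.

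Atrial natriuretic peptide, from Nppa, and B-type natriuretic peptide, from Nppb, are hormones that heart muscle cells release under stretch. Nppa is made chiefly in atria of the adult heart and returns in ventricles under load, while Nppb is a load marker of ventricles. Corin is a membrane protease of cardiomyocytes that cleaves the atrial precursor into the active hormone. Npr1 codes for the guanylyl cyclase receptor that binds both peptides, Npr2 for the guanylyl cyclase receptor of C-type natriuretic peptide, and Npr3 for the receptor that clears all of these peptides. Cyclic GMP made by the cyclases acts through cyclic GMP-dependent kinase and is degraded by phosphodiesterases.

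Nppa and Nppb lie beside each other on the plus strand of chromosome 4, and their promoters are shown because these are the members whose levels varied most. The deposited table places Nppa (ENSMUSG00000041616) at chr4:148000722-148002079 and Nppb (ENSMUSG00000029019) at chr4:147985788-147987205, each with 3 exons and 1 transcript in GENCODE M21 on GRCm38. The start of Nppb is 14.9 kb before that of Nppa. The 250 bases before each RefSeq start (GRCm38.p6, plus strand, chr4:148000472-148000721 for Nppa and chr4:147985650-147985899 for Nppb) are given 5′ to 3′. Capitals mark a TATA box, GATA motifs on either strand, an M-CAT motif and an NKX2-5 motif, whose letters are spelled out after the sequences.
Nppa: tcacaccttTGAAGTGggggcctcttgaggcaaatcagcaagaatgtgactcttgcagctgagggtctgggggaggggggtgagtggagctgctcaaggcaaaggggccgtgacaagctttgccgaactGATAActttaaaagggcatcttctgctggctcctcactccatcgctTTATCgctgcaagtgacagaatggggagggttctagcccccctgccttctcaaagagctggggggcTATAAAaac
Nppb: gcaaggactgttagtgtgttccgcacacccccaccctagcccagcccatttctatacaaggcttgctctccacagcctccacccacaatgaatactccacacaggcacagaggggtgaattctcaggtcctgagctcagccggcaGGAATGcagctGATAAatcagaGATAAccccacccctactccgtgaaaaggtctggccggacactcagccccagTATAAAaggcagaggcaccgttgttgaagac
The RefSeq start of Nppb lies 112 bases after the start in the deposited table, while the Nppa starts are the same base. All motifs were searched on both strands, and shares are of 32851 RefSeq promoters searched over the same length. Each stretch held 1 match to the TATA box, searched as TATAAA, which 12.4% of promoters held. It lay 9 bases before the RefSeq start in Nppa and 31 bases before it in Nppb. Both also held 2 matches to the core of GATA factors, searched as GATAA and found in 22.6% of promoters, with 1 of the Nppa matches on the minus strand. Nppa alone held the core of NKX2-5, searched as TNAAGTG and found in 10.1% of promoters, 241 bases before its start. Nppb alone held the M-CAT core of TEAD factors, searched as GGAATG and found in 12.6% of promoters, 105 bases before its start. Neither stretch held the AP-1 core, searched as TGANTCA (6.75% of promoters), or the CArG box of SRF (1.47%). None of these motifs was found in the same window of Npr1, Npr2, Npr3 or Corin.

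Levels are FPKM, reads scaled for exon length and library size, which allow levels of genes of different length to be compared. Assigned reads numbered 21.03 M to 39.6 M per library, but mitochondrial genes took 46.8 to 80.0% of them in cardiomyocyte libraries against 16.7 to 25.4% in whole hearts. The share was 46.8 to 69.3% in isoproterenol knockout and 75.6 to 79.3% in isoproterenol wild-type cardiomyocytes. In saline knockout ones it was 69.3 to 80.0%, and in saline wild-type ones 55.3 to 65.0%. Genotypes thus did not overlap in this share, in opposite directions under the treatments. Its part in the genotype differences was not tested. Fewest reads behind a value of the 6 genes were 73 (Corin). The isolated preparations were not pure cardiomyocytes: the 8 cardiomyocyte markers summed to 783 to 6317 FPKM in them, against 6431 to 12001 FPKM in whole hearts. Endothelial markers (10 genes) summed to 185 to 470 FPKM in isolated preparations and 111 to 155 FPKM in whole hearts, and neutrophil markers (10 genes) to 25.5 to 2980 FPKM against 0.347 to 3.04 FPKM. In these bulk libraries, fewer cells of a type and less RNA per cell cannot be told apart. Panx1 itself was at 0.948 to 1.22 FPKM in isoproterenol knockout and 1.24 to 1.89 FPKM in isoproterenol wild-type cardiomyocytes, and at 1.28 to 2.0003 FPKM in saline knockout and 1.57 to 2.89 FPKM in saline wild-type ones. In whole hearts it went against the labels, at 0.469 to 0.915 FPKM in hearts labelled knockout and 0.338 to 0.512 FPKM in hearts labelled wild type.

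Whole hearts held far more Nppa than isolated cardiomyocytes, and within each kind of library Nppa did not pass the test between genotypes or treatments. Nppa was at 36.7, 29.1, 29.8 and 29.7 FPKM in isoproterenol knockout cardiomyocytes. In isoproterenol wild-type cardiomyocytes it was at 57.9, 65.8, 17.8 and 39.9 FPKM, so the knockout libraries sat close together inside the wild-type range. In saline knockout cardiomyocytes there were 15.6, 32.9 and 25.7 FPKM, and saline wild-type ones 4.005, 19.5 and 55.7 FPKM. The saline wild-type group therefore held both the lowest Nppa value of the 14 isolated preparations and a value near the highest. Whole hearts labelled knockout had 2155, 631, 990 and 222 FPKM. Whole hearts labelled wild type had 304, 363, 75.3, 78.0 and 577 FPKM, so 3 of the 4 hearts labelled knockout exceeded every heart labelled wild type and the lowest did not.

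Nppa averaged 38.3 FPKM over the 8 isoproterenol cardiomyocyte libraries and 599.6 FPKM over the 9 whole hearts, 15.6 times as much in the hearts, with no overlap between them. On the log2(FPKM + 1) scale the difference was -3.42 ± 0.47 (SE; limma, Benjamini-Hochberg adjusted p = 7.78e-06). In the hearts, group means were 999.7 ± 831.5 FPKM for the knockout label (SD, n = 4) and 279.5 ± 211.3 FPKM for the wild-type label (SD, n = 5). That difference, 1.84 ± 0.74 (SE), did not pass the test across genes (limma adjusted p = 0.720), and it was 1.32 without the heart at 2155 FPKM. In saline cardiomyocytes the genotype difference was 0.46 ± 0.68 (SE, limma adjusted p = 0.896) and it was -0.46 without the library at 4.005 FPKM. In isoproterenol cardiomyocytes it was -0.38 ± 0.59 (SE, limma adjusted p = 0.910), on the deposited scale. It was -0.76 without the wild-type library at 17.8 FPKM and -0.15 without the one at 65.8 FPKM. Isoproterenol minus saline was 1.21 ± 0.63 (SE, limma adjusted p = 0.243) in wild-type cardiomyocytes. Without the library at 4.005 FPKM that was 0.29, and without the one at 55.7 FPKM 2.04. In knockout cardiomyocytes it was 0.38 ± 0.63 (SE, limma adjusted p = 0.783).

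Atrial muscle genes moved closely with Nppa among isolated preparations (Pearson r with the atrial list 0.94) and less closely among hearts (0.64). Myl7, the atrial myosin light chain, was at 1799, 0.566, 923 and 0.433 FPKM in the hearts labelled knockout, in the order of the Nppa values above. In hearts labelled wild type Myl7 was at 189, 229, 74.1, 0.968 and 308 FPKM. The 3 hearts with Myl7 below 1 FPKM still held 631, 222 and 78.0 FPKM of Nppa, while Sln, the atrial sarcolipin gene, was at 0.0341, 0.0310 and 0.145 FPKM in them. Bmp10, an atrial growth factor, was at 160 and 118 FPKM in the 2 hearts with most Nppa and at 0 to 39.8 FPKM in the other 7. In isolated cardiomyocytes Myl7 ran between 18.0 and 331 FPKM, and the ratio of Nppa to Myl7 was 0.168 to 0.914. The summed 9 atrial markers covered 22.4 to 3402 FPKM in hearts labelled knockout and 24.6 to 742 FPKM in hearts labelled wild type. The part of atrial tissue in the Nppa differences was not tested.

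**Figure D1:**
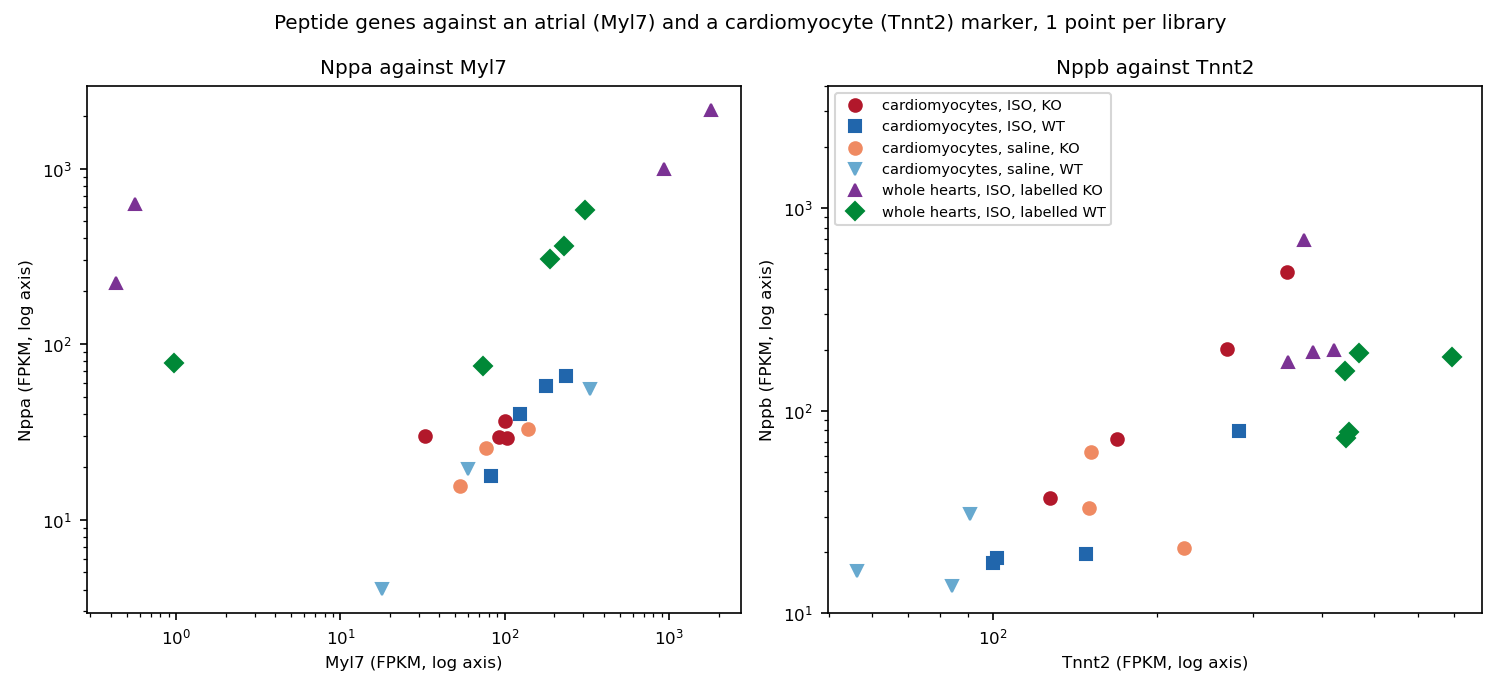
FPKM of Nppa against the atrial marker Myl7 (left) and of Nppb against the cardiomyocyte marker Tnnt2 (right), 1 point per library, both axes logarithmic, with symbols for the 6 groups. On the left, 3 hearts with Myl7 below 1 FPKM hold 78.0 to 631 FPKM of Nppa, and on the right Nppb per Tnnt2 is 0.292 to 1.40 in isoproterenol knockout and 0.132 to 0.283 in isoproterenol wild-type preparations.

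Nppb was the member with the widest spread among isolated cardiomyocytes and the largest genotype difference under isoproterenol, but that difference did not pass the test across all genes. Isoproterenol knockout cardiomyocytes had 484, 37.2, 202 and 72.4 FPKM. Isoproterenol wild-type cardiomyocytes had 18.8, 17.8, 19.5 and 79.8 FPKM. Of the knockout libraries 2 lay above every wild-type library, all 4 lay above 3 of the wild-type ones, and the wild-type library at 79.8 FPKM lay above the other 2. Saline knockout cardiomyocytes had 62.6, 32.9 and 20.95 FPKM and saline wild-type ones 16.2, 31.0 and 13.7 FPKM, which overlap. Whole hearts labelled knockout had 195, 696, 173 and 199 FPKM, and whole hearts labelled wild type 73.7, 158, 78.4, 184 and 193 FPKM. The 696 FPKM of the second heart labelled knockout, which had almost no Myl7, was the highest Nppb value of all 23 libraries.

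Nppb averaged 198.9 ± 202.7 FPKM in isoproterenol knockout and 34.0 ± 30.6 FPKM in isoproterenol wild-type cardiomyocytes (SD, n = 4 each), a ratio of means of 5.85. The difference on the log2(FPKM + 1) scale was 2.20 ± 0.70 (SE), with a 95% interval of 0.69 to 3.72. Its limma p was 0.00765 before and 0.797 after Benjamini-Hochberg adjustment, and 90th in order of p among 11919 genes tested. Leaving out the library at 484 FPKM gave 1.57, and leaving out the one at 37.2 FPKM gave 2.79. Between isoproterenol and saline the difference was 1.83 ± 0.76 (SE, limma adjusted p = 0.582) in knockout cardiomyocytes and 0.48 ± 0.76 (SE, limma adjusted p = 0.696) in wild-type ones. The difference between those 2 effects was 1.35 ± 1.07 (SE), with a limma adjusted p of 1.00, so a larger Nppb response in knockout cells was not shown. Without the scaling between libraries it was 3.10 (limma adjusted p = 0.0179), where the median of all genes was 1.27 and 9747 of 11304 genes were called. In whole hearts Nppb averaged 315.7 ± 253.5 FPKM for the knockout label (SD, n = 4) and 137.5 ± 57.6 FPKM for the wild-type label (SD, n = 5). That difference was 1.04 ± 0.45 (SE, limma adjusted p = 0.743), and 0.57 without the heart at 696 FPKM.

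Nppb moved with cardiomyocyte genes among the isolated preparations, so its level was also set against them. The knockout preparations with the most Nppb, at 484 and 202 FPKM, had 346 and 268 FPKM of Tnnt2, the cardiac troponin T gene. The other 2 had 127 and 169 FPKM, and the isoproterenol wild-type preparations 102, 100, 148 and 282 FPKM of Tnnt2. The ratio of Nppb to Tnnt2 was 1.40, 0.292, 0.755 and 0.429 in isoproterenol knockout cardiomyocytes and 0.184, 0.178, 0.132 and 0.283 in wild-type ones. In whole hearts the ratio was 0.506, 1.87, 0.5001 and 0.473 for the knockout label and 0.166, 0.357, 0.174, 0.266 and 0.411 for the wild-type label. All 8 cardiomyocyte markers were lower in hearts labelled knockout than in hearts labelled wild type, with a median of -0.29, and their part in the ratio was not tested. Saline knockout cardiomyocytes had ratios of 0.415, 0.220 and 0.0936, and saline wild-type ones 0.286, 0.342 and 0.163.

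When every gene was taken relative to the mean of the 8 cardiomyocyte markers, a scaling added after the data were seen, the Nppb difference in isoproterenol cardiomyocytes was 1.66 ± 0.43 (SE). Its limma adjusted p was 0.535. This scaling subtracts the same value from all genes of a library, which put the median of all genes at -0.53. The distance of Nppb from that median is therefore that of the deposited scale, 2.20, and adds nothing to it. In whole hearts the same scaling gave 1.31 ± 0.39 (SE, limma adjusted p = 0.295), with a median of all genes at 0.23. In saline cardiomyocytes it gave 0.06, with a median of all genes at -0.78, where the deposited scale gave 0.85 ± 0.81 (SE, limma adjusted p = 0.895). The part of cardiomyocyte content in the Nppb differences was otherwise not tested.

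Whole hearts averaged 216.7 FPKM of Nppb and the 8 isoproterenol cardiomyocyte libraries 116.4 FPKM. Isolated preparations were lower by the test, at -1.61 ± 0.48 (SE, limma adjusted p = 0.00683), although the libraries overlapped and 5 of 8 preparations lay below every heart. Relative to the cardiomyocyte markers the difference was -0.05 (limma adjusted p = 0.878), where the median of all genes was 1.48. Nppa exceeded Nppb in 6 of the 9 hearts, whereas Nppb exceeded Nppa in all 4 isoproterenol knockout preparations, with ratios of Nppb to Nppa of 13.2, 1.28, 6.79 and 2.44. In isoproterenol wild-type preparations the ratios were 0.324, 0.270, 1.10 and 1.998, while they ran between 0.816 and 4.01 in saline knockout and between 0.246 and 4.04 in saline wild-type preparations.

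**Figure D2:**
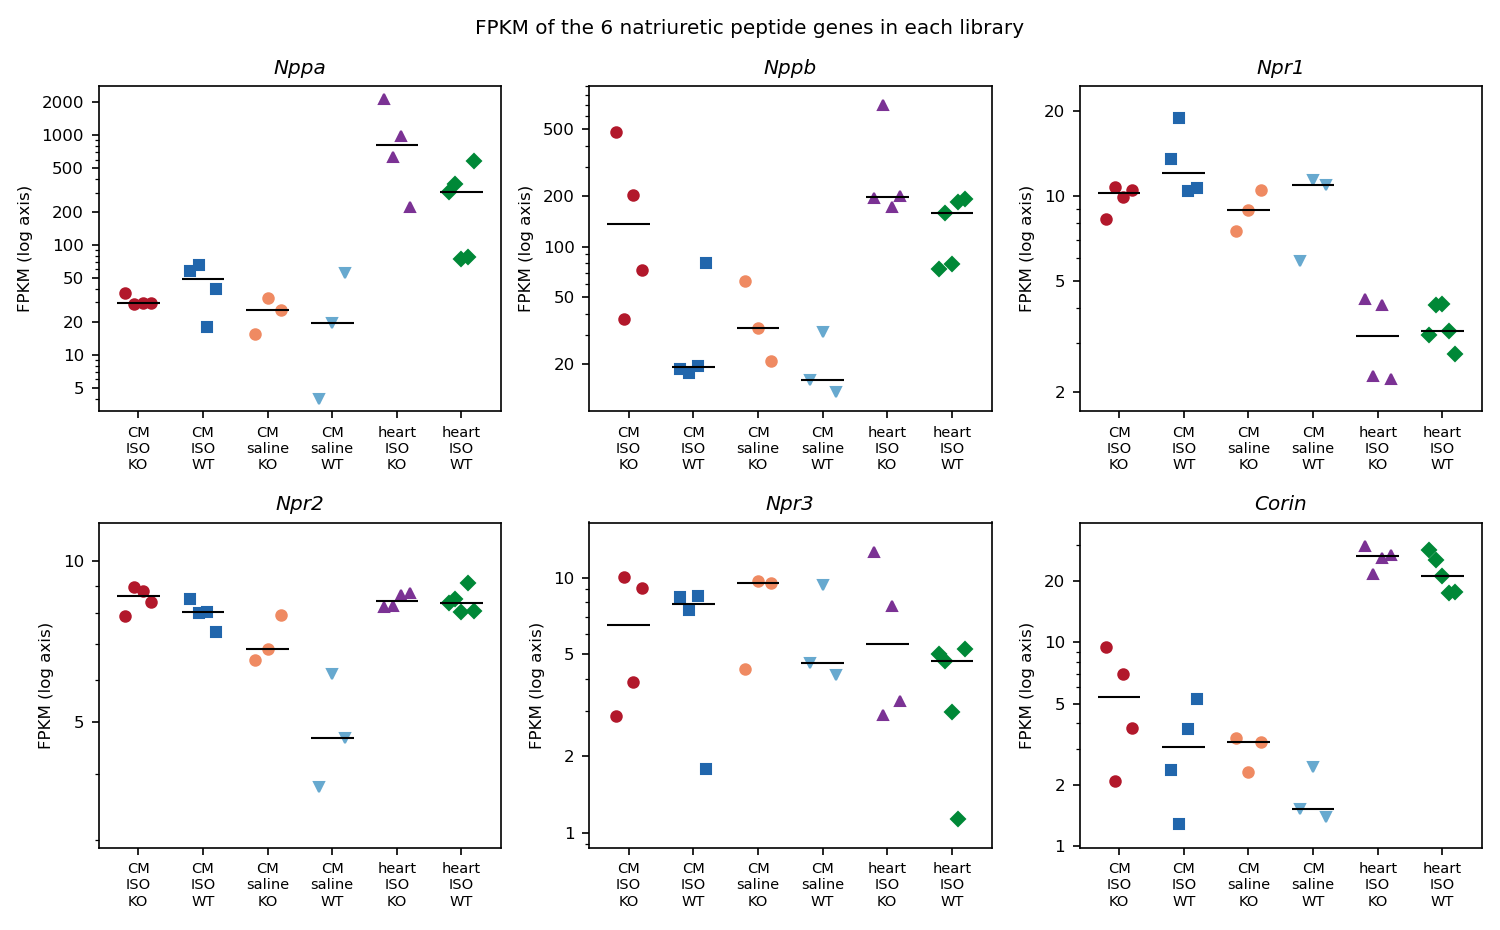
FPKM of each of the 6 genes in every library (points, logarithmic axis) with the group median (line); CM is isolated cardiomyocytes, heart is whole heart, and whole-heart genotypes are as labelled. Nppa and Corin lie higher in whole hearts, Npr1 lies lower there, and the isoproterenol knockout values of Nppb run between 37.2 and 484 FPKM.

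The genes described here around the peptide pair varied less than the pair did. Protein-coding genes within 100 kb include, in order along the chromosome, Mfn2, Plod1, 2510039O18Rik, Nppb, Nppa, Clcn6, Agtrap and Draxin. Clcn6, the chloride transporter gene next to Nppa, stayed between 1.00 and 2.08 FPKM over all 23 libraries. In isoproterenol cardiomyocytes its knockout minus wild-type difference was 0.01 on the log2 scale. Mfn2, which codes for the mitochondrial fusion protein mitofusin 2, ran between 13.2 and 128 FPKM, and was lower in isolated preparations than in hearts by -1.66 (limma adjusted p = 1.68e-06). Draxin was at most 0.254 FPKM and was not tested.

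**Figure D3:**
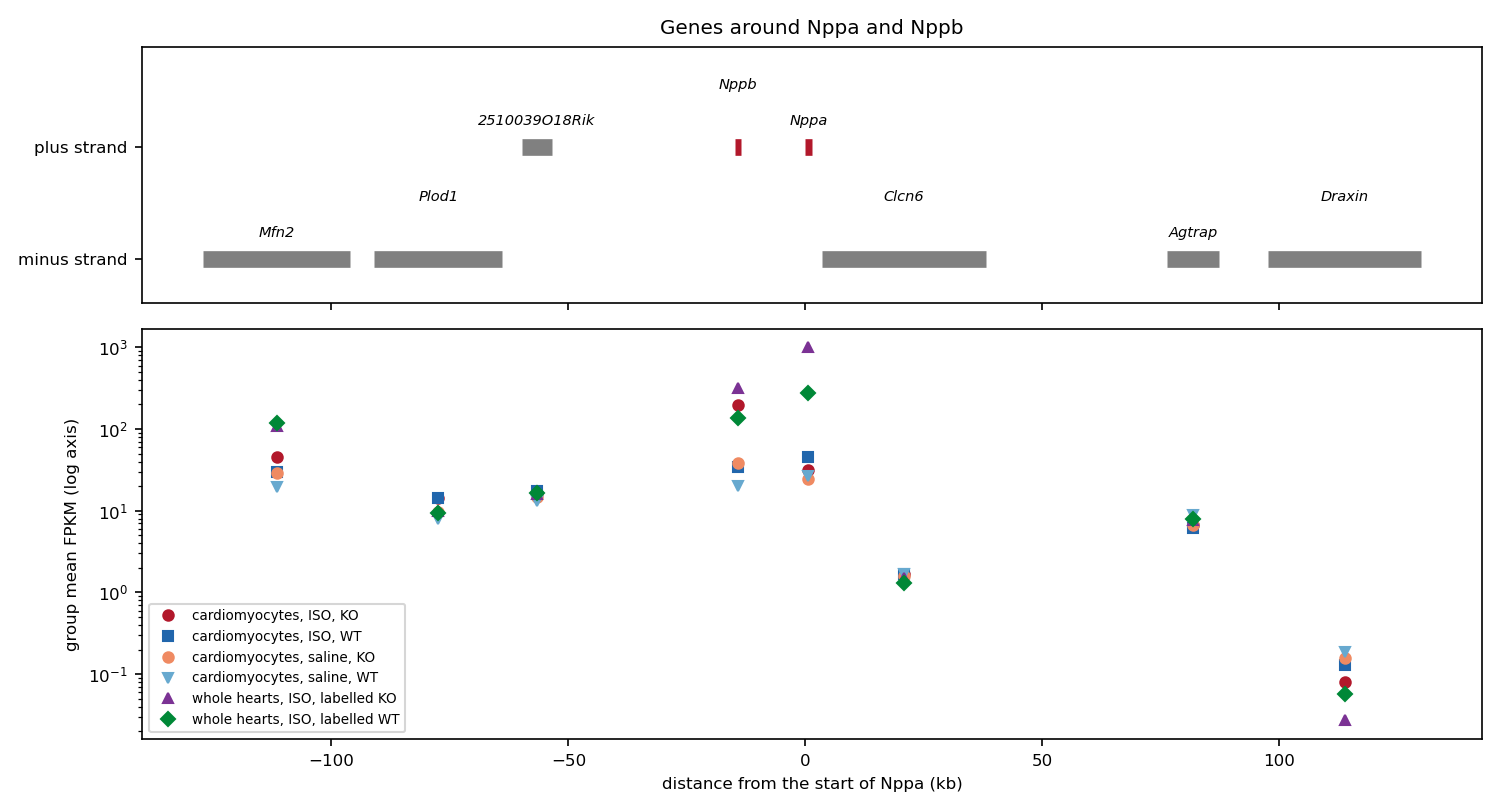
Upper panel: the genes named above around Nppa and Nppb by strand and distance from the start of Nppa in kb, with the peptide genes in red. Lower panel: mean FPKM of each of the 6 groups at each gene's middle on a logarithmic axis; group means spread most at Nppb and Nppa.

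Nppa overlaps an antisense gene, Gm13054, on 532 of its 865 exonic bases (61.5%), and Npr2 overlaps Gm12473 on 266 of 4667 exonic bases (5.70%). Gm13054 was at most 3.73 FPKM and 181 reads, and Gm12473 ran between 1.42 and 7.40 FPKM. Whether counting used strand is not stated, so reads of a gene and its antisense partner cannot be told apart.

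Of the other members, Npr1 lies on the minus strand at chr3:90450591-90465866, Npr2 on the plus strand at chr4:43631935-43651244, Npr3 on the minus strand at chr15:11839896-11905674 and Corin on the minus strand at chr5:72300025-72504473, as the deposited table gives them. Npr1, the receptor of both cardiac peptides, was at higher levels in isolated preparations than in hearts, opposite to its ligand Nppa. Isoproterenol knockout cardiomyocytes had 8.27, 10.8, 9.96 and 10.5 FPKM of Npr1, and isoproterenol wild-type ones 13.6, 19.0, 10.5 and 10.7 FPKM. In saline knockout cardiomyocytes there were 7.49, 8.95 and 10.5 FPKM, and saline wild-type ones 5.89, 11.4 and 11.0 FPKM. Whole hearts labelled knockout had 4.28, 2.29, 4.08 and 2.23 FPKM, and whole hearts labelled wild type 3.21, 4.08, 4.11, 3.31 and 2.74 FPKM. Every isolated preparation thus lay above every heart, while the genotype and treatment groups overlapped. Isoproterenol preparations and hearts did not overlap, in one direction or the other, for 26.7% of all genes. Isoproterenol cardiomyocytes averaged 11.6 FPKM and hearts 3.37 FPKM, a log2 difference of 1.53 ± 0.13 (SE, limma adjusted p = 7.87e-08). Endothelial markers were higher in the same preparations, with all 10 called higher, as 31.1% of all genes were. All 9 macrophage markers and 9 of 10 fibroblast markers were called higher too. The ratio of Npr1 to Pecam1, an endothelial adhesion gene, was 0.182 to 0.496 in isoproterenol preparations and 0.115 to 0.224 in hearts. The part of these cells in the Npr1 difference was not tested. The genotype difference in isoproterenol cardiomyocytes was -0.37 ± 0.22 (SE, limma adjusted p = 0.797), and it was -0.21 without the wild-type library at 19.0 FPKM.

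Npr2, the C-type peptide receptor, was the steadiest member: it ran between 8.02 and 9.08 FPKM over all 9 hearts. Isoproterenol knockout cardiomyocytes had 7.89, 8.93, 8.80 and 8.38 FPKM, and isoproterenol wild-type ones 8.48, 7.99, 8.04 and 7.36 FPKM. Saline knockout cardiomyocytes had 6.53, 6.86 and 7.92 FPKM and saline wild-type ones 3.78, 6.15 and 4.66 FPKM. The saline wild-type libraries were the lowest 3 of all 23, below every saline knockout and every isoproterenol wild-type library. Isoproterenol minus saline in wild-type cardiomyocytes was 0.63 ± 0.15 (SE), 130th in order of p, with a limma adjusted p of 0.0654, which missed the threshold of 0.05. It passed when only genes with at least 5 FPKM were tested (limma adjusted p = 0.0350), where 129 of 5307 genes were called. With array weights it also passed (limma adjusted p = 0.0256), where 1262 of 11919 genes were called. Knockout minus wild type in saline cardiomyocytes was 0.48 ± 0.16 (SE), 67th in order of p, with a limma adjusted p of 0.895. Groups as far apart as this, every library higher, were found for 11.9% of all genes in the saline genotype comparison and 11.7% in the wild-type isoproterenol comparison. The sign of both differences turned with the scaling: without the scaling between libraries they were -0.38 for isoproterenol and -0.35 for genotype, where the median of all genes was -0.78 and -0.69, and relative to cardiomyocyte markers they were -0.23 and -0.31, with medians of -0.81 and -0.78. Endothelial markers were higher in the same 2 comparisons, 10 of 10 in each, with medians of 0.76 (isoproterenol, 1 called) and 0.38 (saline genotype, 0 called). Cardiomyocyte markers were higher too, 8 of 8 in each, with medians of 0.86 and 0.88, as were 7 of 8 smooth muscle and pericyte markers. Macrophage markers were lower, 9 of 9 (isoproterenol) and 8 of 9 (saline genotype). The part of these cells in the Npr2 differences was not tested. Isolated preparations and hearts differed by -0.03 ± 0.06 (SE), with a 95% interval of -0.16 to 0.10 (limma adjusted p = 0.660). That difference passed the test with voom on recovered reads at -0.18 (adjusted p = 0.0293) and without the scaling between libraries at -1.14 (adjusted p = 2.01e-09), where the median of all genes was -0.94. Relative to the cardiomyocyte markers it passed at 1.53 (adjusted p = 1.25e-05), where the median was 1.48. Most genes passed under these settings: 8031 of 11386 with voom, 10385 of 11807 without the scaling and 10590 of 11386 relative to the markers.

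Npr3, the clearance receptor, differed more between libraries of a group than between groups. Isoproterenol knockout cardiomyocytes had 2.88, 10.1, 3.91 and 9.12 FPKM, and isoproterenol wild-type ones 8.37, 7.46, 8.47 and 1.78 FPKM. Saline knockout cardiomyocytes had 4.41, 9.69 and 9.56 FPKM and saline wild-type ones 4.64, 9.35 and 4.15 FPKM. Hearts labelled knockout had 12.7, 2.90, 7.73 and 3.27 FPKM, and hearts labelled wild type 5.02, 4.70, 2.98, 1.14 and 5.26 FPKM. Neighbouring groups in the order of means overlapped throughout, and Npr3 passed the test in none of the 7 comparisons on the deposited scale. Between isoproterenol cardiomyocytes and hearts it passed with array weights at 0.90 (limma adjusted p = 0.0013), and relative to the cardiomyocyte markers at 1.87 (limma adjusted p = 0.000788), where the median of all genes was 1.48. Most genes passed under these settings, 9302 of 11386 with array weights and 10590 of 11386 relative to the markers. The 2 isoproterenol knockout preparations with most Nppb had the least Npr3 of their group, and the isoproterenol wild-type preparation with most Nppb likewise. The saline knockout preparation with most Nppb also had the least Npr3, but the saline wild-type one had the most. Over the 14 preparations the Pearson r of Nppb and Npr3 was -0.52, with a Spearman rho of -0.24. In hearts, the 2 with most Nppa and Myl7 had the most Npr3. The genotype difference in isoproterenol cardiomyocytes was 0.01 ± 0.45 (SE), with a 95% interval of -0.95 to 0.97.

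Corin, the processing protease, was scarce in the isolated preparations and plentiful in hearts. Isoproterenol knockout cardiomyocytes had 9.46, 2.09, 6.96 and 3.81 FPKM, and isoproterenol wild-type ones 2.36, 1.28, 3.75 and 5.28 FPKM. In saline knockout cardiomyocytes there were 3.39, 2.31 and 3.24 FPKM and saline wild-type ones 1.52, 2.45 and 1.38 FPKM. Hearts labelled knockout had 29.8, 21.6, 25.8 and 26.9 FPKM, and hearts labelled wild type 28.4, 25.4, 21.1, 17.5 and 17.6 FPKM. Every preparation lay below every heart, and all other groups overlapped with their counterparts. Isoproterenol cardiomyocytes averaged 4.37 FPKM and hearts 23.8 FPKM, a difference of -2.36 ± 0.23 (SE, limma adjusted p = 2.23e-07), and -0.80 relative to the cardiomyocyte markers, where the median of all genes was 1.48. The difference between genotypes was 0.61 ± 0.36 (SE, limma adjusted p = 0.797) in isoproterenol cardiomyocytes and 0.25 ± 0.16 (SE, limma adjusted p = 0.855) in hearts. In isoproterenol cardiomyocytes it was 0.34 without the knockout library at 9.46 FPKM and 0.92 without the one at 2.09 FPKM. Corin kept close to the cardiomyocyte markers among isolated preparations: its log2 level minus their mean was -4.68 to -4.54 in isoproterenol knockout, -4.92 to -4.44 in isoproterenol wild-type, -4.70 to -4.46 in saline knockout and -4.80 to -3.97 in saline wild-type preparations.

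Ordered by group mean, most neighbouring groups had ranges that overlapped. Nppa ran from whole hearts labelled knockout and wild type down through isoproterenol wild-type, isoproterenol knockout, saline wild-type and saline knockout cardiomyocytes, and only the step between hearts and cardiomyocytes was free of overlap. Nppb ran from hearts labelled knockout through isoproterenol knockout cardiomyocytes to hearts labelled wild type. Its step without overlap came next, before saline knockout, isoproterenol wild-type and saline wild-type cardiomyocytes. That step held between neighbours only and did not split the libraries. The isoproterenol wild-type library at 79.8 FPKM lay above the hearts at 73.7 and 78.4 FPKM. The isoproterenol knockout library at 37.2 FPKM lay below the saline knockout one at 62.6 FPKM. Corin formed the same 2 blocks as Nppa, with means of 26.0 ± 3.37 FPKM in hearts labelled knockout (SD, n = 4) and 22.0 ± 4.83 FPKM in hearts labelled wild type (SD, n = 5) above 5.58 ± 3.28 FPKM in isoproterenol knockout cardiomyocytes (SD, n = 4). Npr1 had the reverse order of blocks, and its lowest cardiomyocyte mean, 8.97 ± 1.496 FPKM in saline knockout cells (SD, n = 3), stood above both heart means. Npr2 had a single step without overlap, between 7.10 ± 0.729 FPKM in saline knockout and 4.86 ± 1.20 FPKM in saline wild-type cardiomyocytes (SD, n = 3 each). Npr3 had no such step.

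All 6 genes passed the filter in each of the 7 comparisons, and counts over them were small. In saline cardiomyocytes limma called 0 of 6 between genotypes, against 0% of 11919 genes, with 1 of 6 and 3.53% of all genes at an unadjusted p below 0.05. In isoproterenol cardiomyocytes it called 0 of 6 between genotypes, against 0% of genes, with 1 of 6 and 6.2% of genes unadjusted. Between isoproterenol and saline it called 0 of 6 in knockout cardiomyocytes, against 0% of genes (1 of 6 and 6.77% unadjusted). In wild-type cardiomyocytes it called 0 of 6, against 0.705% of genes (1 of 6 and 24.3% unadjusted). The interaction of genotype and isoproterenol called 0 of 6, against 0% of genes (0 of 6 and 2.47% unadjusted). In whole hearts the label comparison called 0 of 6, against 0% of 10189 genes (2 of 6 and 6.4% unadjusted). Where limma called no gene, voom on recovered reads called none either, with 401 (saline genotype), 730 (isoproterenol genotype), 885 (isoproterenol in knockout), 258 (interaction) and 655 genes (hearts) unadjusted. Between isoproterenol cardiomyocytes and hearts it called 4 of 6, against 68.6% of 11386 genes, with 1 higher (31.1% of genes) and 3 lower (37.4% of genes), and 4 of 6 and 71.2% unadjusted. That share of members is near the share of all genes. Comparisons that use the same libraries, such as both that use isoproterenol wild-type cardiomyocytes, are not independent of each other.

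**Figure D4:**
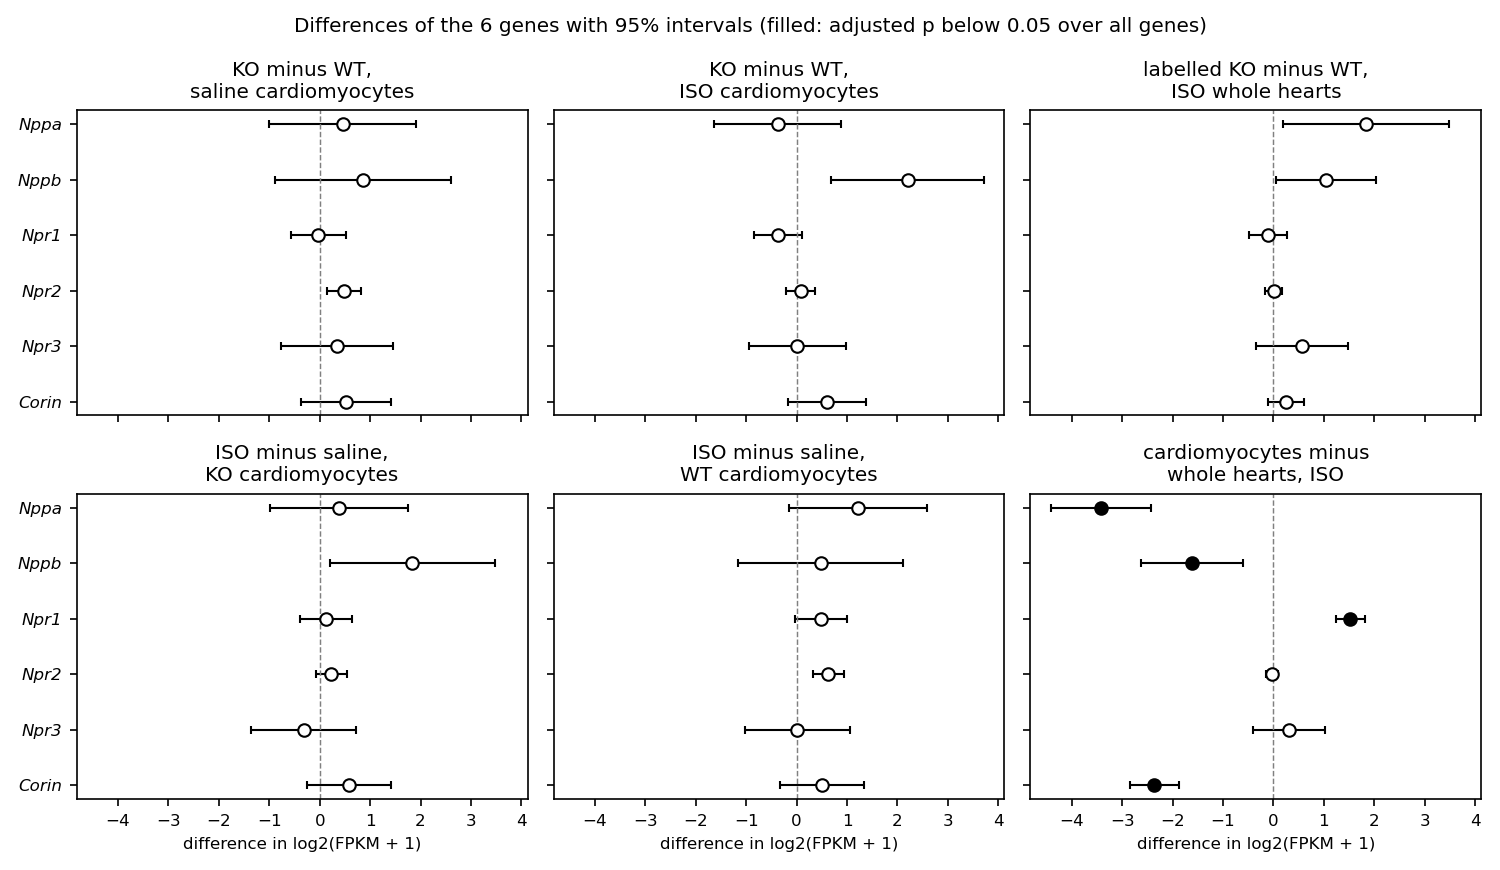
Difference of each gene on the log2(FPKM + 1) scale (point) with its 95% interval (bar) in 6 comparisons, the first-named group minus the second; filled points have an adjusted p below 0.05 over all genes. Filled points are Nppa, Nppb, Npr1 and Corin in the comparison of cardiomyocytes with whole hearts, and Nppb has its largest genotype difference, 2.20, in isoproterenol cardiomyocytes.

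Further genes of the pathway, 22 in number, gave no called change between genotypes or treatments. Of these, 13 were tested in cardiomyocytes, with 5 higher and 8 lower in isoproterenol knockout than wild-type cells and a median difference of -0.05, against 0.01 for all genes. Dpp4, a peptidase that trims B-type peptide, had the smallest p there (-0.94 ± 0.36, SE, limma adjusted p = 0.797), and Pde3a, a cyclic nucleotide phosphodiesterase, was at 0.37 ± 0.15 (SE). In wild-type cardiomyocytes Pde2a, a phosphodiesterase that cyclic GMP activates, was at 0.74 ± 0.23 for isoproterenol minus saline (SE, limma adjusted p = 0.136). Nppc, which codes for the ligand of Npr2, was at most 0.164 FPKM in any library, and Ostn, whose product osteocrin binds Npr3, at most 0.0873 FPKM. Between isoproterenol cardiomyocytes and hearts 14 were tested, with 6 called higher and 5 called lower, near the 68.6% of all genes. Pcsk6, a convertase that activates corin, rose to a mean of 35.7 FPKM in isoproterenol knockout and 44.03 FPKM in wild-type preparations, against 10.4 and 10.5 FPKM in hearts labelled knockout and wild type (1.82 ± 0.09, SE, limma adjusted p = 6.25e-10). Furin, which cleaves the B-type precursor, fell by 0.82 on the log2 scale (limma adjusted p = 9.40e-07), and Pde1c and Pde3a, both phosphodiesterases of cardiac muscle, by 1.51 and 1.22. Pcsk6 therefore differed in the opposite direction to Corin between the same libraries.

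Transcription factors and cofactors known to act on the peptide genes, 23 in number, gave 0 calls between genotypes or treatments. In isoproterenol cardiomyocytes 15 were higher and 8 lower in knockout, with a median of 0.10 against 0.01 for all genes. Ankrd1, a load-responsive cofactor, was at 254, 101, 176 and 219 FPKM in knockout and 45.4, 39.4, 86.1 and 115 FPKM in wild-type preparations, a difference of 1.43 ± 0.37 (SE, limma adjusted p = 0.797). Gata4, whose protein binds GATA motifs, was at 7.07 to 19.2 FPKM in knockout and 9.05 to 11.9 FPKM in wild-type preparations. Against hearts, 3 of 22 tested were called higher and 14 lower in isoproterenol cardiomyocytes, where 31.1% of all genes were called higher and 37.4% lower. The lower ones were led by Myocd, the serum response factor coactivator myocardin (-1.77 ± 0.16, SE) and Tead1, which binds M-CAT motifs (-1.50 ± 0.18, SE).

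Companion genes of load and hypertrophy, 11 in number, were not called between genotypes either. In isoproterenol cardiomyocytes 10 of 11 were higher in knockout, where 51.4% of all genes were, with a median of 0.74. In saline cardiomyocytes all 11 were higher in knockout, where 51.6% of all genes were, with a median of 0.89. The list sets no expected direction for its genes, so these counts do not measure a load response. All 8 cardiomyocyte markers, 1 of them (Myh6) also on this list, were higher in knockout in both comparisons too, with medians of 0.55 (isoproterenol) and 0.88 (saline), and were not called. Ctgf, a matrix-associated growth factor gene, had a difference of 1.01 ± 0.25 (SE, limma adjusted p = 0.797) in isoproterenol and 0.97 ± 0.29 (SE, limma adjusted p = 0.895) in saline cardiomyocytes. Acta1, the skeletal actin gene of stressed myocardium, was at 106, 20.5, 96.1 and 57.1 FPKM in isoproterenol knockout and 21.8, 28.1, 21.8 and 69.4 FPKM in isoproterenol wild-type preparations. Its order over the knockout libraries was that of Nppb, and also that of the cardiomyocyte markers Tnnt2 and Myh6. The heart with 696 FPKM of Nppb also had the highest Acta1 (739 FPKM), Ankrd1 (1778 FPKM) and Myh7 (80.5 FPKM), the slow myosin gene, of all hearts, where the other 8 had 39.5 to 183, 274 to 692 and 11.4 to 32.97 FPKM. In hearts 4 of the 11 were higher and 7 lower for the knockout label, with a median of -0.07. All 11 were called lower in isoproterenol cardiomyocytes than in hearts, as 37.4% of all genes were, with a median of -1.70. All 8 cardiomyocyte markers were called lower there too, with a median of -1.46.

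Across libraries, the members followed different marker lists, some in both kinds of library and others in isolated preparations or hearts alone. Correlations are Pearson r of log2(FPKM + 1) over 14 isolated preparations or 9 hearts, given as descriptions, since the libraries share preparation and composition. Among isolated preparations Nppa followed the atrial list (r = 0.94, and 0.93 within groups). Nppb and Corin followed the cardiomyocyte list (0.86 and 0.94), the ventricular list (0.89 and 0.93) and each other (0.90). Both also followed the load companions (0.88 and 0.93). Npr2 followed the endothelial list (0.86, but 0.54 within groups) and Npr3 the fibroblast list (0.77). Npr1 was nearest to the natriuretic pathway list (0.79) and to the atrial list (0.75). Nppa and Nppb, though neighbours, had an r of 0.10 among preparations and 0.39 among hearts. Among hearts Npr3 followed the endocardial list (0.91) and the atrial list (0.89). Npr1 followed the epicardial and mesothelial list there (0.81), with 0.72 for the atrial list. Nppb followed the load companions in hearts too (0.76, with a Spearman rho of 0.32). With the cardiomyocyte list, r among hearts was -0.09 for Nppb and -0.62 for Corin, and with each other it was -0.20. With the ventricular list, r among hearts was -0.06 for Nppb, -0.74 for Corin and -0.87 for Nppa. Nppa had an r of 0.64 with the atrial list there, and Npr2 an r of 0.01 with the endothelial list.

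**Figure D5:**
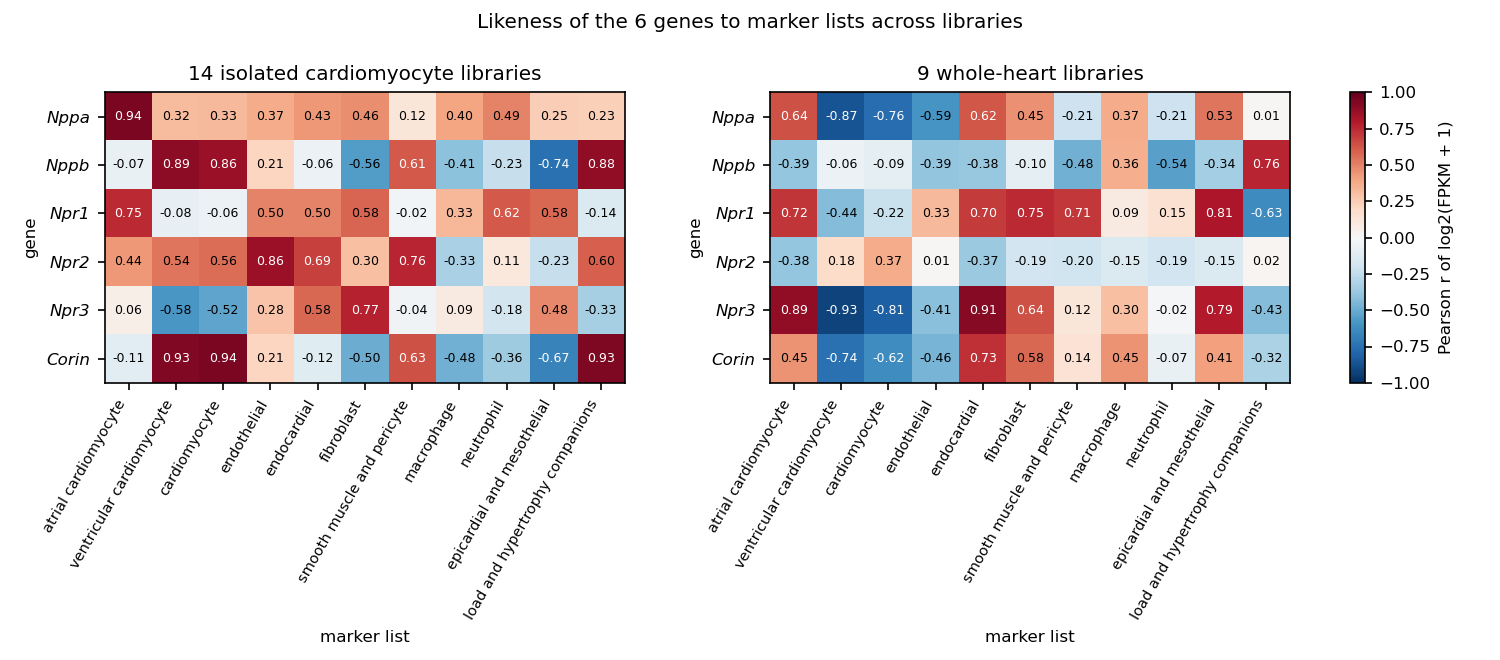
Pearson r of log2(FPKM + 1) between each gene and the mean of each marker list or of the load companions, over 14 isolated cardiomyocyte libraries (left) and 9 whole hearts (right), coloured from -1 (blue) to 1 (red) with the value in each cell. Nppa goes with atrial markers (0.94) and Nppb and Corin with cardiomyocyte markers (0.86 and 0.94) among isolated preparations, while Npr3 goes with endocardial markers (0.91) among hearts.

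Of the single genes most like each member, taken from 10176 protein-coding genes that averaged 1 FPKM or more in isolated preparations, those for Nppa included Crtap (r = 0.95), and those for Nppb were Tnfrsf12a (0.97), Abcc8 (0.97) and Bves (0.96). Abcc8 codes for a sulfonylurea receptor of potassium channels, and Bves for a membrane protein of heart muscle. Sema3f (0.96) was most like Npr1, Clstn1 (0.94) most like Npr2 and Naalad2 (0.91) most like Npr3. Among the genes nearest to Corin were Cacna2d1, a calcium channel subunit gene (0.98), and Vldlr, a lipoprotein receptor gene (0.98). Among hearts, of 9477 genes, the nearest were Prkag2 (0.94) and Ctgf (0.93) for Nppa, and Tubb2a (0.95, with a Spearman rho of 0.63) and Uxs1 (0.92) for Nppb. Csrp1 (0.98) was nearest to Npr1 there, Acin1 (0.89) to Npr2, Fam49a (0.96) to Npr3 and Adamtsl4 (0.92) to Corin. No gene was among the nearest 3 of a member in both kinds of library.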

How the data were processed

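RNA of isolated cardiomyocytes or whole hearts was sequenced, and the authors deposited 1 table of FPKM values for 46077 genes in 23 libraries, 1 misaligned line left out. The submitters' processing notes name HISAT2 2.0.5 and featureCounts but no build is stated, and the coordinates of 5 of the 6 genes equal GENCODE M21 on GRCm38. Column headers gave each library's group but no replicate number; WHO in them was read as whole heart, which the headers do not spell out. Control cardiomyocytes are saline per the labels' titles but untreated in the series' design text. FPKM steps gave whole reads (largest deviation 2.1e-06 reads over 392392 values), and the deposited FPKM carried a scaling between libraries: the effective library size was 0.426 to 1.88 times the assigned reads. The scaling changes differences between libraries of unequal mitochondrial share.

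The main test was limma (version 3.58.1, R version 4.3.3), run on log2(FPKM + 1), which understates changes of low genes, with trended empirical Bayes moderation and Benjamini-Hochberg adjustment over all genes tested in a comparison (threshold 0.05). Genes needed 1 FPKM in at least 3 (cardiomyocyte fit) or 4 libraries (fits with whole hearts); all 6 members passed, so the exact permutation test planned for members below the filter was not needed. The fit was also run on simulated data with known changes, and the share of them recovered is not reported here. The 6 genes and all lists were chosen with earlier results of these data known. Named besides them are neighbours within 100 kb, up to 4 genes of each list by p, the 3 nearest genes by Pearson r, and marker genes; Gata4 and single markers were chosen after their values were seen. Motifs were searched in 250 bases before RefSeq starts. Alternatives covered pseudocount, filter, normalization, voom on recovered reads, moderation, array weights, libraries in the fit and leaving out each library; the scaling to cardiomyocyte markers was added after the data were seen. A few genes that these rules select are not reported here.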

Additional observations from a re-analysis of the deposited data

Results flagged for a closer look

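In 24 combinations of gene and group with 4 or 5 libraries, 4 values stood apart from the rest of their group by Dixon's criterion, which chance meets in about 1 in 20 groups. Nppb was at 696 FPKM in 1 whole heart labelled knockout, where the next value was 199 FPKM. Nppb was at 79.8 FPKM in 1 isoproterenol wild-type cardiomyocyte library, where the next value was 19.5 FPKM. The same library had 1.78 FPKM of Npr3, where the next value was 7.46 FPKM, and 282 FPKM of Tnnt2, the most of its group. Nppa was at 36.7 FPKM in 1 isoproterenol knockout cardiomyocyte library, where the next value was 29.8 FPKM.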

How the results depend on the processing

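No paired analysis was possible because the columns carry no replicate numbers. Over all alternatives other than leaving out a library, 425 differences of the 6 genes kept direction and side of the threshold, 47 turned sign, 12 kept their sign and came to pass the threshold and 1 ceased to. Of the 47, those that passed with the turned sign were Npr1 (isoproterenol in wild type and interaction) and Npr2 (interaction) without the scaling between libraries, and Npr2 (cardiomyocytes against hearts) relative to cardiomyocyte markers. One gene fell out of the test at a filter of 5 FPKM in a comparison, so that value is missing.

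Without the scaling between libraries the median of all genes was -0.69 (saline genotype), 0.57 (isoproterenol genotype) and -0.78 (isoproterenol in wild type). It was 0.45 (isoproterenol in knockout), 1.27 (interaction), 0.09 (hearts) and -0.94 (cardiomyocytes against hearts). Genes called, of 11304 tested in each, were 5983 (saline genotype), 5083 (isoproterenol genotype), 7572 (isoproterenol in wild type) and 9747 (interaction). Members called were 1, 3, 1 and 4 of 6. Saline genotype differences were then -0.47 (Nppa), -0.10 (Nppb), -0.35 (Npr2), -0.53 (Npr3) and -0.15 (Corin), and Npr1 passed at -0.90 (limma adjusted p = 0.0253). Isoproterenol genotype differences were 0.45 (Nppa) and 0.40 (Npr1), and Nppb passed at 3.01 (limma adjusted p = 0.0351). Npr2 passed there at 0.80 (limma adjusted p = 0.0351) and Corin at 1.15 (limma adjusted p = 0.0365). Isoproterenol in wild type gave -0.65 (Nppb), -0.60 (Npr1), -0.38 (Npr2), -0.93 (Npr3) and -0.28 (Corin), and in knockout 0.24 (Npr3). The interaction gave 0.92 (Nppa), 1.29 (Npr1), 1.15 (Npr2) and 1.17 (Npr3), and Nppb passed at 3.10 and Corin at 1.29; hearts gave 0.0063 (Npr1), and cardiomyocytes against hearts -0.71 (Npr3).

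Relative to cardiomyocyte markers, the median of all genes was -0.78 (saline genotype), -0.53 (isoproterenol genotype), -0.81 (isoproterenol in wild type), -0.60 (isoproterenol in knockout), 0.23 (interaction and hearts) and 1.48 (cardiomyocytes against hearts). Saline genotype differences were -0.34 (Nppa), -0.31 (Npr2), -0.45 (Npr3) and -0.27 (Corin), and isoproterenol ones -0.46 (Npr2) and -0.53 (Npr3). Isoproterenol in wild type gave 0 genes called and -0.38 (Nppb), -0.38 (Npr1), -0.23 (Npr2), -0.85 (Npr3) and -0.36 (Corin); in knockout it gave -0.22 (Nppa), -0.48 (Npr1), -0.37 (Npr2) and -0.018 (Corin). Hearts gave 0.15 (Npr1), and cardiomyocytes against hearts 1.53 (Npr2) and -0.05 (Nppb).

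Genes called for isoproterenol in wild type were 84, but 129 at a filter of 5 FPKM, with 1 member called, 2 with quantile normalization, 0 with equal nuclear totals, 1262 with array weights, with 1 member called, and 2 with only the groups compared. No filter gave 10 for saline genotype, array weights 16 for the interaction and 6 for hearts, and a filter of 5 FPKM 4170 for cardiomyocytes against hearts. Npr3 for isoproterenol in wild type was -0.023 and -0.0035 with pseudocounts of 0.1 and 0.5, -0.067 with quantile normalization, -0.27 with equal nuclear totals and -0.049 with voom. Array weights gave -0.17 (Npr3, isoproterenol genotype), -0.19 (Nppb, isoproterenol in wild type), -0.11 (Npr3, hearts) and 0.0011 (Npr2, cardiomyocytes against hearts). Npr2 in that last comparison was 0.10 with quantile normalization and 0.12 with equal nuclear totals. The cause was not tested.

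Leaving out 1 library at a time gave 0 to 222 genes called for isoproterenol in wild type, 0 to 1 for saline genotype, isoproterenol in knockout and the interaction, and 0 to 2 for hearts. Ranges that crossed 0 were -0.46 to 1.29 (Nppa) and -0.30 to 0.12 (Npr1) for saline genotype, -0.42 to 0.28 (Npr3) for isoproterenol genotype, and -0.027 to 0.82 (Nppb) and -0.18 to 0.44 (Npr3) for isoproterenol in wild type. The others were -1.66 to 0.090 (Nppa) and -0.19 to 0.40 (Corin) for the interaction and -0.0067 to 0.034 (Npr2) for hearts. The 4 members called between cardiomyocytes and hearts numbered 4 in every such fit.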
